A study of Mus musculus with 2 samples.

Results

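The genes described here are 10 that build, bind or break down the hyaluronan matrix of cartilage: the large proteoglycans Acan and Vcan, the link proteins Hapln1 and Hapln3, the hyaluronan synthases Has1, Has2 and Has3, the hyaluronidases Hyal1 and Hyal2, and the hyaluronan receptor Cd44. They were taken by gene symbol from a table of 15719 named genes, and all 10 were listed. The table holds polyadenylated RNA of superficial zone cells, the chondrocytes nearest the joint surface, dissociated from the end cartilage of femur and tibia of C57BL/6 mice at postnatal day 5 and seeded on fibronectin-coated dishes. One library came from Prg4KO mice, which lack the gene for the joint lubricant lubricin, and the other from wild type (WT) mice of the same strain and age. Both were digested alike, first in 0.25% trypsin (1 hour) and then in 173 U/mL of type I collagenase (1.5 hours). The sources used here do not give the Prg4 allele, how many mice went into a library or how long the cells were cultured. Each genotype had 1 library, so no value below has a replicate check, no test between genotypes was possible, and every interval covers counting error only.

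Hyaluronan is a long unbranched sugar chain that the synthases make at the cell surface from UDP-sugars and push out into the matrix. In cartilage many aggrecan molecules sit along one such chain, each locked in place by a link protein, and the charged sugar chains on aggrecan draw in the water that lets the tissue resist compression. Versican takes a similar place in looser and developing tissues, Cd44 holds the chain at the cell surface, and hyaluronidases cut it.

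Depth was alike in both libraries, with 21392574 expected counts in the Prg4KO library and 21619093 in the WT library. An expected count is an estimate of a gene's reads and need not be whole. FPKM, as deposited, scales it by effective transcript length and library size, so that levels of different genes can be compared. Prg4 itself had an FPKM of 0.10 in the Prg4KO library and 593 in the WT library. Chondrocyte markers were present: Col2a1, the main cartilage collagen, had 15702 and 14594 FPKM in the Prg4KO and WT libraries. Sox9, the chondrocyte transcription factor, had 168 and 150. Neither tells the superficial zone from other chondrocytes, so they do not check the zone in the label. Col1a1, a fibrous tissue marker, had 5593 and 11470 FPKM in the Prg4KO and WT libraries. Deposited Prg4KO values did not stand beside their own gene names after the first 20 rows and were re-paired with them by row order and by count over FPKM, which gives effective length. All 10 genes were paired, at a probability of at least 0.9999 each. For the 5 genes with 1 annotated transcript and an FPKM of at least 5, effective lengths in the libraries differed by at most 0.024%. Effective length was itself used to choose the pairs, so this closeness is no separate check of them.

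As a yardstick, the log2 ratio of Prg4KO over WT, taken on FPKM + 1, had a median of 0.13 over the 6697 genes that reached an FPKM of 5 in each library. Values called relative below have this shift subtracted. Other cell types also differed between the libraries. Of the 7365 genes with an FPKM of at least 5 in a library, 52.1% lay above the all-gene median and 47.9% below it. The sums given here cover all genes of a list with values, also those too low to compare. Of 8 fibrous tissue markers, 8 lay below the all-gene median (summed FPKM 11279 in the Prg4KO library and 19530 in the WT library). Col1a1 and Col1a2 made up most of that sum, and Dcn, at a log2 ratio of 0.03, was nearly level. Of 12 chondrocyte markers, 11 lay above the median (23564 and 20167), and 4 were past a ratio of 1.5 on the higher side (background 6.31%). These 4 were Col9a1, Col9a3, Matn1 and Matn3, at log2 ratios of 0.65, 0.61, 0.73 and 1.16. Col2a1, which made up most of the chondrocyte sum, and Sox9 were at 0.11 and 0.16. Red cell genes lay above the all-gene median in 5 of 5 cases (2675 and 1648), leukocyte genes in 5 of 6 compared (94.4 and 76.6) and endothelial genes in 0 of 4 (67.0 and 70.5). Among the superficial zone markers, 7 of 8 including Prg4 lay below it (441 and 1237, or 441 and 644 without Prg4), and of 3 osteoclast markers compared 2 lay above it (233 and 165). Ctsk, the compared osteoclast marker below the median, made up 143 of that sum in the Prg4KO library and 140 in the WT library. Both osteoblast markers compared lay above the median (32.9 and 20.1). The part of this mix in the differences below was not tested, and a change in the number of cells of a type cannot be told apart from a change in RNA per cell.

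The 4 genes of the proteoglycan and link protein families lie in neighbouring pairs, which is why their promoters are shown together. Acan (chromosome 7, 79053226 to 79115099, plus strand) is followed after 1927 bases by Hapln3 (79117027 to 79133173, minus strand). Hapln1 (chromosome 13, 89540529 to 89611832, plus strand) is followed after 43476 bases by Vcan (89655309 to 89743027, minus strand). In each pair the genes are transcribed towards each other. Printed 5′ to 3′ are the 250 bases before the RefSeq start of each gene in GRCm38.p6, at chr7:79052976-79053225 for Acan, chr7:79131019-79131268 for Hapln3, chr13:89540386-89540635 for Hapln1 and chr13:89742513-89742762 for Vcan. Capitals mark short motifs, each searched on both strands. The CCAAT box was searched by the letters of its name, and the core sequence that SOX transcription factors often bind was searched as ACAAAG. For the GC box the letters searched on these promoters were GGGCGG. For the TATA element found in many promoters, the letters searched were TATAAA. The spans given for each gene cover all its RefSeq transcripts, so the start used for a promoter can lie inside the span.
Acan: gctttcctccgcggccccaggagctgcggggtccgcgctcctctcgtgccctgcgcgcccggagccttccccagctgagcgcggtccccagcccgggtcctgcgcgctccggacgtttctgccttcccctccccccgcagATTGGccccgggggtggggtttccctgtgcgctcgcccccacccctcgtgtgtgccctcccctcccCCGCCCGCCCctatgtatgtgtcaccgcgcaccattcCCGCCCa
Hapln3: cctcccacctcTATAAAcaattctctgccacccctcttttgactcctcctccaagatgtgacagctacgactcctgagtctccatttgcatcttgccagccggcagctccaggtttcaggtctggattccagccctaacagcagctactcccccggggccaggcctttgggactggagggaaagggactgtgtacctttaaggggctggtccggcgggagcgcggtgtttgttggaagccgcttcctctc
Hapln1: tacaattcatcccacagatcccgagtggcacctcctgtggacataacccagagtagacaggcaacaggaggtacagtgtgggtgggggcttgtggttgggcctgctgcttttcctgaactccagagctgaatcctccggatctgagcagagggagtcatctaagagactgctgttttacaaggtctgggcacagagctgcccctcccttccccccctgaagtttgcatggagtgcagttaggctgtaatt
Vcan: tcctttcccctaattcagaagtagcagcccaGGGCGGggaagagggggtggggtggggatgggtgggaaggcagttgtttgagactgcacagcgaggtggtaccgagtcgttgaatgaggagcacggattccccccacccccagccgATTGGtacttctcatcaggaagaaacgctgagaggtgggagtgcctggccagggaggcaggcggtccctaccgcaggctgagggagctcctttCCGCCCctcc

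The promoters differ in composition. That of Acan is 74.4% G or C with 26 CpG dinucleotides, against 54.4% and 2 for Hapln1, 58.0% and 8 for Hapln3, and 62.4% and 10 for Vcan, where the median over 27018 mouse promoters is 52.0% and 6. Acan has 1 CCAAT box and 3 GC boxes, of which the pair starting 44 and 40 bases before the start overlap by 2 letters. Vcan has 1 CCAAT box, 103 bases before its start, and 2 GC boxes, and Hapln3 has 1 TATA element, 239 bases before its start. The Hapln1 window holds none of these letters, and no window here holds the SOX core. Over all promoters of this length a CCAAT box stood in 34.5%, a GC box in 32.9%, the SOX core in 16.5% and a TATA element in 13.0%. These matches describe the letters only.

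In level per transcript length, the set spans from some of the most abundant messages of these cells to one barely detected. Acan and Hapln1 together made up 89.5% of the summed FPKM of the 10 genes in the Prg4KO library and 87.9% in the WT library. Their order was reversed between the libraries: in the Prg4KO library Hapln1 (452 FPKM, counting interval 448 to 456) stood above Acan (436, 432 to 439), and in the WT library Acan (527, 524 to 531) stood above Hapln1 (268, 265 to 271). Cd44 was the third in each, then Has2, Has1, Hyal2 and Vcan, and Has3 was the last. Intervals of Has1 and Hyal2 overlapped in each library (9.36 to 11.2 and 9.15 to 11.1 in Prg4KO, 10.1 to 12.1 and 8.86 to 10.8 in WT), so their order is not resolved. Likewise Hapln3 and Hyal1 overlapped in the Prg4KO library (2.59 to 3.89 and 1.81 to 2.63) and in the WT library (1.80 to 2.91 and 2.90 to 3.91).

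**Figure D1:**
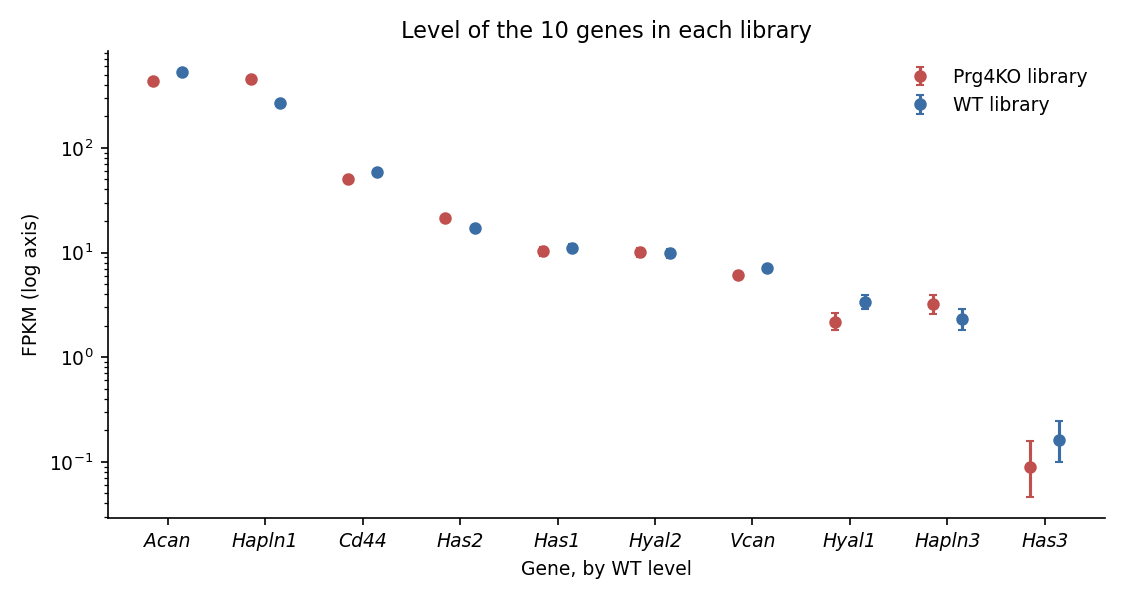
FPKM of the 10 genes on a log axis, Prg4KO library (red, left of each pair) and WT library (blue, right), with 95% Poisson counting intervals that are smaller than the point for most genes. Hapln1 is at 452 in the Prg4KO library and 268 in the WT library, while Acan is at 436 and 527.

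Aggrecan message was lower in the Prg4KO library as deposited. With a trend in length and GC content removed it was nearly level, though still below the all-gene median. The message of the link protein Hapln1 was higher. Acan, which encodes the core protein of aggrecan, had 69408 expected counts and 436 FPKM in the Prg4KO library, against 84767 counts and 527 FPKM in the WT library. Its count ratio per library total was 0.827 (0.819 to 0.836), and its log2 ratio of FPKM was -0.28, or -0.41 relative to all genes. With the trend of log2 ratio on transcript length and GC content removed, the log2 ratio of Acan was 0.02, and -0.12 relative to all genes. Hapln1, the link protein that clamps aggrecan to hyaluronan, had 49386 counts and 452 FPKM in the Prg4KO library, against 29526 counts and 268 FPKM in the WT library. That is a count ratio of 1.69 (1.67 to 1.71) and a log2 ratio of 0.75, or 0.62 relative to all genes and 0.51 relative to all genes with the trend removed. It stood above 97.8% of the 7365 genes compared, those with an FPKM of at least 5 in a library, and Acan stood above 8.24%.

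The rarer members of these families were far below. Hapln3, a link protein found in many tissues, had 97 counts (3.19 FPKM) in the Prg4KO library and 71 counts (2.31 FPKM) in the WT library. Its count ratio of 1.38 had an interval of 1.01 to 1.90, which only just leaves out 1. Vcan, which encodes versican, had 922 counts in the Prg4KO library and 1365 in the WT library, at 6.12 and 7.12 FPKM. The count ratio was 0.683 (0.627 to 0.743) but the FPKM ratio was 0.860 (0.790 to 0.935), and these intervals do not overlap. The other lecticans and link proteins of the family, known from brain, were nearly silent, with Bcan at 0.28 and 0.31 FPKM in the Prg4KO and WT libraries, Ncan at 0.07 and 0.06 and Hapln4 at 0.05 and 0.13. Hapln2 was not listed with a WT value.

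The gap between versican's 2 ratios lies in transcript length. Splicing of versican keeps or skips exons for long stretches of attachment sites for sugar chains, so its messages differ greatly in length. The mean length implied by count and FPKM was 6958 bases in the Prg4KO library and 8767 bases in the WT library, and the effective length differed by -20.7%. The 5 RefSeq transcripts named in the table match GENCODE models of 12427, 8332, 5702, 2321 and 2273 bases. Among 2743 genes with several transcripts that reached an FPKM of 5 in each library, Vcan had the second largest difference in effective length, and 6 genes in all differed by more than 15%. Effective length was used in the re-pairing, which makes large differences rare among pairs, and the row of Vcan rests on its neighbours: 10 of the 10 named rows around it show the same shift of 7 rows. For most genes of the set fewer neighbouring rows shared the shift, down to 6 of 10 for Hyal1 and 3 of 10 for Cd44. How the reads split over transcripts is an estimate by the authors' software, and the table gives no value per transcript. Cd44, with 6 transcripts, had mean lengths of 4422 and 4424 bases in the Prg4KO and WT libraries.

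**Figure D2:**
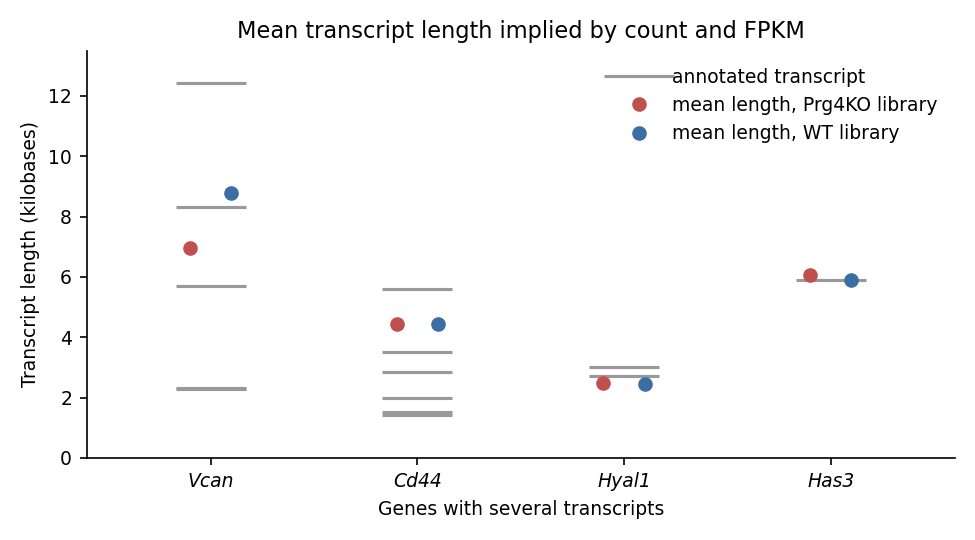
Mean transcript length in kilobases implied by count and FPKM for the 4 genes with several transcripts, Prg4KO library (red, left) and WT library (blue, right), with annotated GENCODE transcripts as grey bars. Vcan is at 6958 bases in the Prg4KO library and 8767 in the WT library, and GENCODE lengths need not equal those the authors used, as the Hyal1 means, below both bars, show.

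Among the synthases Has2 led in both libraries, and its share was larger in the Prg4KO library as deposited. Has2, the main synthase of developing cartilage and limb, had 1974 counts and 21.5 FPKM in the Prg4KO library, against 1604 counts and 17.3 FPKM in the WT library. Its count ratio was 1.24 (1.16 to 1.33) and its log2 ratio 0.30, which is 0.16 relative to all genes and 0.04 relative to all genes with the trend removed. So Has2 stood little above the general shift. Has1, a synthase studied mostly in stressed and inflamed cells, had 463 counts and 10.3 FPKM in the Prg4KO library and 503 counts and 11.1 FPKM in the WT library, a count ratio of 0.930 whose interval (0.818 to 1.06) holds 1. Has3, which makes shorter chains, had 12 counts (6.20 to 21.0) in the Prg4KO library and 21 counts (13.0 to 32.1) in the WT library, a count ratio of 0.577 (0.259 to 1.23) whose interval holds 1. Relative to Has2 it was lower, with Has3 per Has2 at 0.00419 in FPKM in the Prg4KO library and 0.00926 in the WT library, a ratio of 0.453 (0.222 to 0.923) that rests on these few counts. Of the summed FPKM of the 3 synthases, 31.8 in the Prg4KO library and 28.5 in the WT library, Has2 made up 67.4% and 60.6%, Has1 32.3% and 38.8% and Has3 0.283% and 0.561%. These shares are as deposited. With the trend removed, the log2 ratios of Has2 and Has1 lay closer together, at 0.17 and -0.003, against 0.30 and -0.10 as deposited. The Has1 gene shares 9320 bases with Spaca6 on the other strand, which had 27 counts in each library, and the sources used here do not say whether the counting used strand.

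The hyaluronidase genes lie side by side on chromosome 9, Hyal2 (107567873 to 107572778) 4171 bases before Hyal1 (107576950 to 107581699). Hyal2, a membrane-anchored enzyme that makes the first cuts in long chains, had 404 counts and 10.1 FPKM in the Prg4KO library, against 395 counts and 9.80 FPKM in the WT library. Its count ratio of 1.03 (0.898 to 1.19) holds 1, and its small log2 ratio of 0.04 turns negative under each of the 5 rescalings of the libraries, down to -0.13. Hyal1, the lysosomal enzyme that cuts the chain further, had 116 counts and 2.19 FPKM in the Prg4KO library and 179 counts and 3.38 FPKM in the WT library. The count ratio was 0.653 (0.513 to 0.830) and the log2 ratio -0.46, or -0.54 relative to all genes with the trend removed. Its counts were not whole, and it shares 404 bases with Hyal3 and 1031 bases with Naa80 on the same strand, so reads may have been divided between these genes. Hyal3 had 32.9 and 29.4 counts in the Prg4KO and WT libraries.

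Cd44, the main cell surface receptor for hyaluronan, was the third most abundant gene of the set. It had 4816 counts and 50.4 FPKM in the Prg4KO library, against 5618 counts and 58.3 FPKM in the WT library, a count ratio of 0.866 (0.833 to 0.900). The log2 ratio was -0.21, or -0.34 relative to all genes and -0.31 with the trend removed as well. Leukocytes also carry Cd44. Of the 6 leukocyte markers compared, Tyrobp (13.3 FPKM in the Prg4KO library, 7.87 in the WT library), Csf1r (8.62 and 6.57), Cd14 (6.98 and 5.18) and Cd68 (25.6 and 21.1) lay above the all-gene median, as did Lyz2 at a log2 ratio of 0.54, and Fcer1g (16.8 and 20.3) lay below it. Their part in the level of Cd44 was not tested.

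Counted over the set, the differences were modest in size. Of the 7 genes compared, 0 passed a ratio of 2 on FPKM + 1 in either direction, against 0.570% of all 7365 genes compared (0.462% on the side higher in Prg4KO and 0.109% on the lower side). Past a ratio of 1.5 on the side higher in Prg4KO was 1 gene, Hapln1, where the background was 6.31%, and 0 genes on the lower side, where it was 1.52% (7.83% for both sides together). These backgrounds shift with the scaling: as deposited 34 genes were past a ratio of 2 on the higher side and 8 on the lower side, and at a common sum 16 and 18. Past a ratio of 1.5 the split was 465 and 112 as deposited and 184 and 233 at a common sum. Hapln1 remained past 1.5 under 4 of 5 rescalings but not at a common sum without the 20 most abundant genes, where its log2 ratio was 0.57. Relative to the all-gene median, 2 of the 7 were higher in Prg4KO (background 52.1%) and 5 lower (47.9%). The counting interval of the count ratio lay wholly above 1 for 2 of the 7, Hapln1 and Has2 (background 52.5%), and wholly below 1 for 3, Acan, Vcan and Cd44 (18.9%). These counts leave out Hapln3, Has3 and Hyal1, which did not reach an FPKM of 5. The median log2 ratio was -0.09 over the 10 genes and -0.10 over the 7 compared, beside 0.15 over all 7365. It was 0.02 over the 10 genes with the trend removed, beside an all-gene median of 0.13 in that setting.

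**Figure D3:**
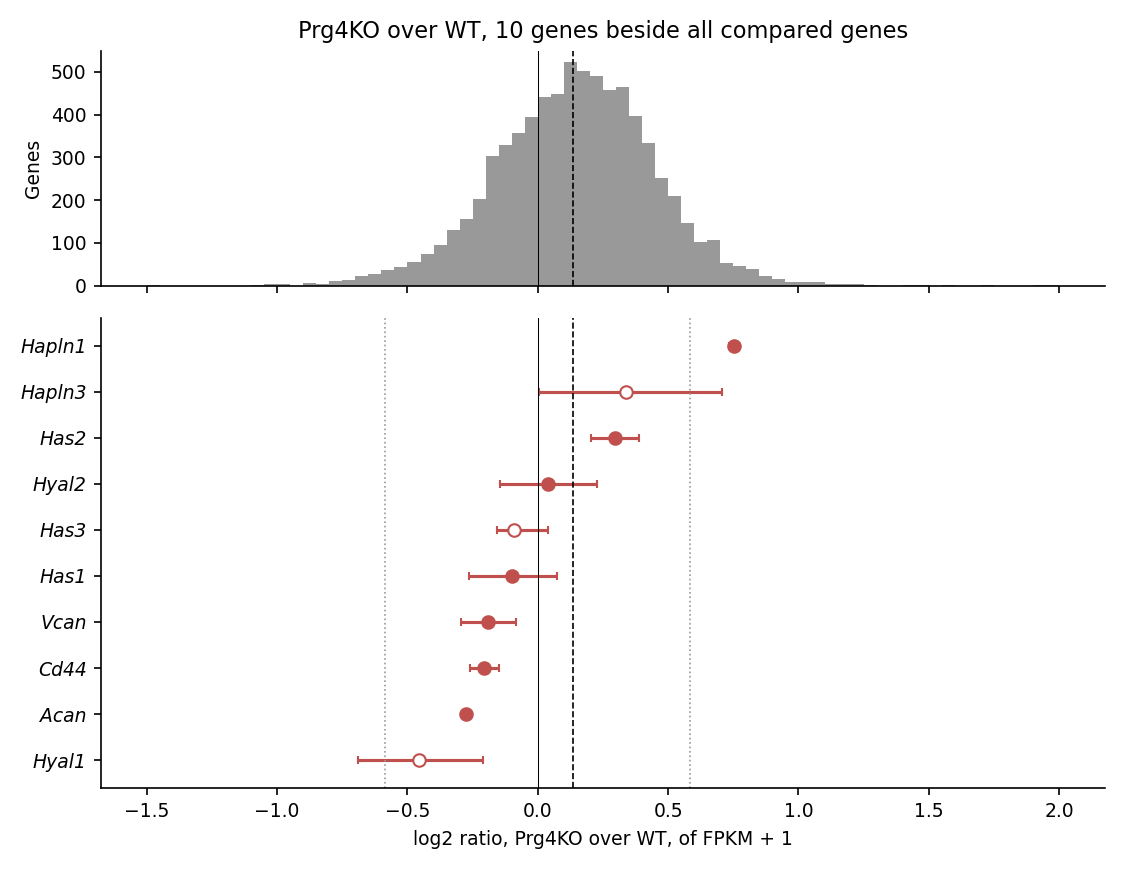
Top, number of genes by log2 ratio of FPKM + 1, Prg4KO over WT, for the 7365 genes compared, with values beyond the axis placed in the end bins. Bottom, the 10 genes with 95% counting intervals (open points, FPKM under 5 in both libraries); the dashed line is the all-gene median of 0.13 and the dotted lines a ratio of 1.5, which Hapln1 alone is past, at 0.75, in the scaling as deposited.

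Ratios of one gene to another within a library do not depend on the scaling between libraries. Hapln1 per Acan was 1.04 in FPKM in the Prg4KO library and 0.508 in the WT library, a ratio of 2.04 (2.01 to 2.08). With the length and GC trend removed this ratio was 1.55. Vcan per Acan was 0.0140 and 0.0135 in the Prg4KO and WT libraries, a ratio of 1.04 (0.957 to 1.13) in FPKM but 0.825 (0.758 to 0.897) in counts. The balance of the 2 link proteins was not resolved, as Hapln3 per Hapln1 was 0.00706 in the Prg4KO library and 0.00862 in the WT library, a ratio of 0.818 (0.602 to 1.11). On the side of hyaluronan turnover, Has2 per Hyal2 was 2.12 in the Prg4KO library and 1.76 in the WT library, a ratio of 1.20 (1.03 to 1.40), which was 1.03 with the trend removed. Has1 per Has2 was 0.479 and 0.640 in the Prg4KO and WT libraries (ratio 0.748, 0.648 to 0.862), and Hyal1 per Hyal2 was 0.217 and 0.345 (0.628, 0.479 to 0.824). The receptor relative to the leading synthase, Cd44 per Has2, was 2.35 in the Prg4KO library and 3.37 in the WT library (ratio 0.697, 0.645 to 0.752). With the trend removed, the log2 ratio was 0.17 for Has2, -0.003 for Has1 and -0.18 for Cd44. As deposited these were 0.30, -0.10 and -0.21, so Has1 and Cd44 lay closer to Has2 without the trend.

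**Figure D4:**
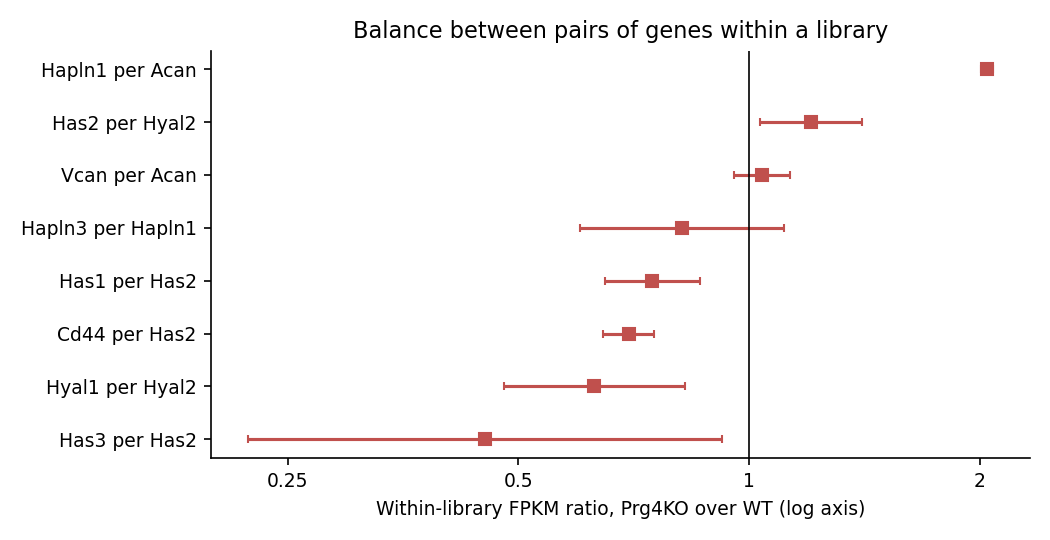
Ratio of FPKM between genes of a pair within a library, Prg4KO over WT on a log axis, with 95% counting intervals and a line at 1. Hapln1 per Acan is at 2.04, and the intervals of Vcan per Acan and Hapln3 per Hapln1 hold 1.

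Precursors of hyaluronan are UDP-sugars, and all 8 genes of the list for their supply were compared. Of these, 7 lay above the all-gene median, where the background was 52.1%, and their median was 0.31, beside 0.15 over all genes compared. Past a ratio of 1.5 on the higher side was 1 of them (background 6.31%), and 0 were past 2. This was Ugdh, which makes the UDP-glucuronic acid used for hyaluronan and for chondroitin sulfate. It had 113 FPKM in the Prg4KO library and 67.4 in the WT library (count ratio 1.67, 1.60 to 1.74). Ugdh stays past 1.5 with Prg4KO FPKM rescaled to a common sum (factor 0.905) or upper quartile (0.918). Rescaled to a common median (0.896), by TMM (0.892) or without the 20 most abundant genes (0.880), Ugdh falls under 1.5. Ugp2, which makes its substrate UDP-glucose, had 44.1 and 32.3 FPKM in the Prg4KO and WT libraries. On the branch to UDP-N-acetylglucosamine, the entry enzyme Gfpt1 had 23.9 and 18.7, its relative Gfpt2 68.6 and 66.4, Gnpnat1 10.5 and 7.06, Pgm3 6.30 and 4.99, Uap1 33.6 and 28.4, and the Uap1 relative Uap1l1 11.0 and 9.81. Gfpt2 was the gene below the all-gene median, at a log2 ratio of 0.04, and the counting interval of Uap1l1 (count ratio 1.13) holds 1. Relative to all genes with the trend removed, Ugdh was at 0.49, Gfpt1 at 0.23, Pgm3 at 0.16, Gnpnat1 at 0.12, Ugp2 at 0.09, Uap1 at 0.07, Uap1l1 at 0.02 and Gfpt2 at -0.09.

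Proteins that bind or cut the complex gave mixed values. Of 15 other hyaluronan binders, 5 reached an FPKM of 5, of which 4 lay below the all-gene median and 0 were past a ratio of 1.5 either way on FPKM + 1. Tnfaip6, which moves the heavy chains of inter-alpha-inhibitor onto hyaluronan, had 45.2 FPKM in the Prg4KO library and 53.6 in the WT library, Itih2, which encodes such a heavy chain, had 6.20 and 8.45, its relative Itih5 had 10.3 and 11.1, and Habp4 had 8.24 and 11.3. Ptx3, a pentraxin that crosslinks those heavy chains, went the other way with 10.7 and 6.85 FPKM. Its ratio was 1.56 on FPKM itself and its log2 ratio 0.58 on FPKM + 1, just under the limit, since the added 1 lowers ratios of low genes. Of 8 lectican-cleaving proteases and their inhibitor, 3 were compared and 0 were past 1.5. The protease genes Adamts1 (17.9 FPKM in Prg4KO, 19.3 in WT) and Adamts4 (5.56 and 5.99) lay below the all-gene median as deposited. Timp3, an inhibitor of these aggrecanases, lay above it at 76.0 and 60.5. Relative to all genes with the trend removed, Adamts1 was at -0.14, Adamts4 at 0.04 and Timp3 at 0.21. The counting interval of the Adamts4 count ratio (0.841 to 1.03) holds 1.

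Breakdown and anchoring genes completed the lists. The depolymerising list held 8 symbols for 6 genes, of which 1 was compared: Tmem2, which encodes a cell surface hyaluronidase, had 6.25 FPKM in the Prg4KO library and 5.43 in the WT library, while Cemip, another depolymerising protein, had 2.30 and 2.41. Of the lysosomal exoglycosidases, which finish the fragments, Gusb and Hexa lay slightly below the all-gene median as deposited. They had 21.7 and 69.1 FPKM in the Prg4KO library and 19.9 and 66.2 in the WT library. Relative to all genes with the trend removed, Gusb was at 0.006 and Hexa at -0.03. Among 6 genes that link, shed or bind Cd44, 3 lay above and 3 below. The linkers Ezr, Rdx and Msn, which tie the receptor to actin, had 47.7, 32.5 and 102 FPKM in the Prg4KO library and 43.1, 24.2 and 126 in the WT library. The sheddase genes Mmp14 and Adam10 had 158 and 4.94 FPKM in the Prg4KO library and 211 and 5.04 in the WT library. Spp1, a secreted ligand of Cd44, had 304 FPKM in the Prg4KO library and 142 in the WT library. As deposited it was past a ratio of 2 on the higher side, the only 1 of the 6 genes (background 0.462%). Its log2 ratio was 1.09 as deposited and 0.83 with the trend removed, which is under a ratio of 2. With Prg4KO FPKM multiplied by 0.918, the mildest of the 5 rescalings, its ratio is also under 2.

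**Figure D5:**
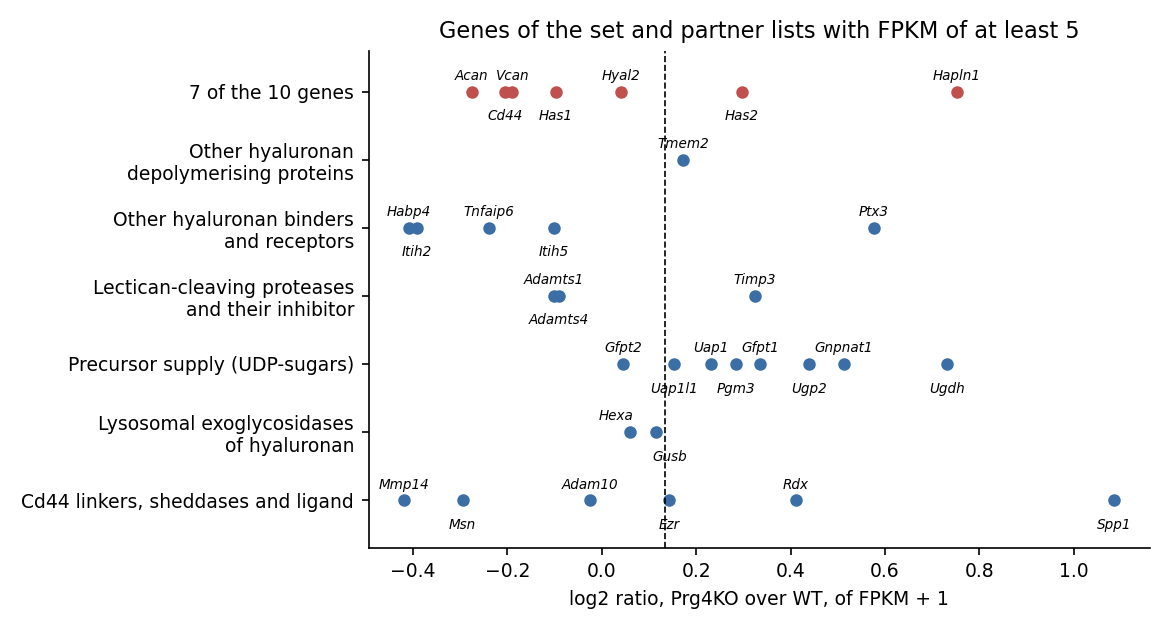
Log2 ratio of FPKM + 1, Prg4KO over WT, for 7 of the 10 genes (red) and for partner lists (blue), genes with FPKM of at least 5 in a library, with the all-gene median of 0.13 as a dashed line. The UDP-sugar genes lie from 0.04 to 0.73, and Hapln1 is at 0.75.

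By level in both libraries, the genes closest to Hapln1 among 6696 candidates were Mia, a small secreted protein of cartilage (463 FPKM in Prg4KO, 274 in WT), the ribosomal protein gene Rpl5 (471 and 293) and Naca (388 and 279). Their distances, measured on log2 of FPKM + 1 over the 2 libraries, were 0.04, 0.14 and 0.23. Closest to Acan were B2m (402 and 557 FPKM in the Prg4KO and WT libraries), the gelatinase gene Mmp2 (396 and 521) and Ifitm2 (490 and 560), at distances of 0.14, 0.14 and 0.19. With 2 libraries such nearness describes level and ratio only.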

How the data were processed

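Polyadenylated RNA was measured in 2 libraries, 1 per genotype. The authors deposited expected counts and FPKM per gene, per the file headers. HISAT2, Bowtie2, RSEM and the build mm10 are listed, with no versions or roles, per the submitters' processing notes. The sources used here do not give read length, strand setting or counting options. Genes at 0 were not listed, and 254 of 15973 pairs of Prg4KO values stood beside no gene.

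The table's Prg4KO values were re-paired with genes by a pair hidden Markov model (Python 3.11.15, numba 0.67.0) on row order and effective length, where a row could lack a partner with a probability of 0.002, plus 0.4 near a count of 0. Pairs at a probability of at least 0.95 covered 14745 genes, including 6838 of 6840 with a WT FPKM of at least 5. Log2 FPKM + 1 then correlated at 0.991 across genes, which are not independent replicates, against 0.0904 beyond the first 20 rows as deposited. The method was also run on simulated data, with an outcome not given here. Differences in effective length were mostly small in that simulation, so it says little about pairs with a difference as large as that of Vcan.

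Log2 ratios used a pseudocount of 1 FPKM, which understates changes of low genes. Genes were compared where either library reached 5 FPKM. Intervals are exact 95% intervals for counting error, Poisson for a count and Clopper-Pearson for a count ratio, with a normal approximation on the log scale for ratios within a library. Reads without molecular identifiers are not independent molecules. The trend was cubic in log length and in GC content, from GENCODE vM21 transcripts matched for 99.4% of genes. TMM factors were from edgeR 4.0.16 on expected counts rounded to whole numbers. Promoters came from RefSeq (GRCm38.p6) and were matched for 8 of 10 genes, not for Has2 and Has3.

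All 10 genes and the listed partner genes with an FPKM of at least 5 were named (at most 8 a list), beside a few low ones chosen after their values were seen (Bcan, Ncan, Hapln4, Hyal3, Cemip). Genes nearest in level to Acan and Hapln1 were 3 each. A further gene of the lists is not reported here. The members and lists were chosen with earlier results of these data known, so no list is independent evidence. Alternatives covered scaling, pseudocount, the filter on low values, the trend and the pairing.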

Additional observations from a re-analysis of the deposited data

How the results depend on the processing

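No paired analysis was possible because each genotype had 1 library, and no library could be left out. No gene of the 10 was past a ratio of 2 under any of the 14 alternatives run. The count past a ratio of 1.5, which is 1, was 0 at a common sum without the 20 most abundant genes and 1 under the other 13. Without the trend in length and GC content, the log2 ratio of Acan changed sign to 0.016, still below the all-gene median of 0.13 in that setting. There the Hapln1 to Acan ratio was 1.55 in place of 2.04 and the Vcan to Acan ratio 0.931 in place of 1.04. By expected counts the Vcan to Acan ratio was 0.825, a change that follows from its shorter effective length in the Prg4KO library. The Has2 to Hyal2 ratio was 1.03 with the trend removed and stayed at 1.20 under the other alternatives run for it. Over 12 alternatives each, the log2 ratio ranged from 0.57 to 0.76 for Hapln1 and from 0.12 to 0.31 for Has2. It ranged from -0.39 to -0.18 for Cd44, from -0.54 to -0.06 for Vcan and from -0.60 to -0.22 for Hyal1, and the signs for all of these genes held. The alternatives on the pairing returned the main value for every gene of the set, so these ranges and counts rest on the other settings. A changed probability limit could not move these values, since each of the 10 was paired at 0.9999 or more. Over all genes, 17 were past a ratio of 2 on the higher side and 5 on the lower side with the trend removed, 54 and 11 at a pseudocount of 0.1, 11 and 3 at 5, and 138 and 8 with the best pair at any probability, against 34 and 8. Past 1.5 there were 256 and 61 with the trend removed and 205 and 53 at a pseudocount of 5, against 465 and 112. The causes of the changes with the trend and the scaling were not tested.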

Other observations

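Of 11 genes beside the 10 on the chromosome with values in both libraries, 7 lay above the all-gene median of 0.13 and 4 below it, and the 5 that reached an FPKM of 5 all lay above it. Of all 7365 genes compared, 52.1% lay above it, and a part of chromosome position was not tested. Isg20, 132829 bases before Acan, had 12.0 FPKM in the Prg4KO library and 9.08 in the WT library (log2 ratio 0.37), and Mfge8, a secreted glycoprotein gene 594 bases beyond Hapln3, had 674 and 573 (0.24). Edil3, 217303 bases before Hapln1, had 18.4 and 14.1 FPKM in the Prg4KO and WT libraries (0.36), and the DNA repair gene Xrcc4, 105886 bases beyond Vcan, had 3.14 and 2.07 (0.43). Tusc2, 1764 bases before Hyal2, had 13.4 FPKM in the Prg4KO library and 10.1 in the WT library (0.38), and Pdhx, beside Cd44, had 7.51 and 6.12 (0.26). Fpr1, beside Has1, was at 0.14 on 5 counts in the Prg4KO library and 2 in the WT library. Below the median were Tango6, beside Has3, with 0.79 FPKM in the Prg4KO library and 1.06 in the WT library (-0.20), Spaca6, beside Has1, with 1.16 and 1.15 (0.01), Slc1a2, beside Cd44, with 0.25 and 0.22 (0.04), and Sntb1, beside Has2, with 0.11 and 0.04 (0.09).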
